A study of Arabidopsis thaliana with 15 samples.

Results

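The gyf1 gyf2-1 double mutant of Arabidopsis thaliana was compared with wild type (WT) over every gene with enough counts. The 6 libraries, 3 per genotype, were chosen by their sample titles from the 15 libraries of the study, and n = 3 per genotype throughout. The study sequenced mRNA, by a strand-specific protocol, from untreated whole seedlings aged 1 week. Seedlings grew on half-strength MS plates holding 1% sucrose, and each RNA extraction used roughly 100 mg. The other 9 libraries came from a second double mutant, gyf1 gyf2-2, and from the single mutants gyf2 and gyf1. All 5 genotypes had the same age, medium and lack of treatment, and WT was Col-0. Neither the mutated loci nor the kind of mutation is in the labels, which also leave unsaid if gyf2-1 and gyf2-2 denote alleles or plant lines. The design text speaks of duplicates whereas 3 libraries per genotype were given. No label says that libraries came from separate cultures, so p-values measure the spread between these samples, which may be technical.

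GYF domains bind proline-rich stretches of partner proteins. In animals, proteins with this domain act with a cap-binding protein to hold back the translation of chosen mRNAs and to speed their decay. Seedlings balance growth and survival through a pair of opposed kinases, TOR, which favours ribosome production and growth when sugars are plentiful, and SnRK1, which favours the breakdown of reserves when energy is short. Plant immunity adds a further set of genes, led by WRKY and ERF transcription factors, whose activity is often raised where growth genes are low.

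Of 32833 genes, 20721 had enough counts and were tested. In gyf1 gyf2-1, 2941 genes were higher than in WT and 2429 were lower at an adjusted p below 0.05, which is 14.2% and 11.7% of the genes tested (edgeR quasi-likelihood F test with Benjamini-Hochberg adjustment, "called" from here on). Together they are 5370 genes (25.9%), and 7666 (37.0%) passed an unadjusted p of 0.05. The lower count is the less stable one, and it was 1549 without gyf1 gyf2-1 replicate 2. All 3 gyf1 gyf2-1 libraries lay above all 3 WT libraries for 3944 genes (19.0%) and below them for 3869 genes (18.7%). Most changes were small. The median absolute log2 fold change of the called genes was 0.413, and 3877 of the 5370 called genes (72.2%) changed by less than 1.5-fold. Of the called genes, 420 (2.03% of those tested) were at least 2-fold higher and 180 (0.869%) at least 2-fold lower. Over all tested genes the median log2 fold change was −0.01. Total counts were 16567801 to 18787528 in gyf1 gyf2-1 and 18913912 to 21307997 in WT, and replicate 1 of each genotype stood apart from its fellows on the second principal component of the 6 libraries. Because whole seedlings were sequenced, fewer cells of a type and less RNA per cell cannot be told apart.

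Among the 20 largest rises were genes of sugar starvation (SEN1, AT3G15450, AT2G20670), trehalose metabolism (TPS8), cell wall loosening (TCH4) and low oxygen (LBD41 and AT3G10040, the hypoxia response attenuator HRA1), together with stress regulators (ZAT7, WRKY62). Levels are CPM, counts divided by the TMM-scaled library total and put on a common scale. SEN1, a gene named for its activity in senescing and darkened leaves, had 49.6, 58.1 and 50.99 CPM in gyf1 gyf2-1, against 6.48, 6.36 and 7.32 CPM in WT (log2 fold change 2.98 ± 0.11, adjusted p = 1.52e-17; here and below the error of a log2 fold change is its standard error). AT1G80440, the kelch F-box protein KMD1 that marks other proteins for destruction, had 129.96, 141 and 135 CPM in gyf1 gyf2-1, against 25.4, 23.2 and 25.3 CPM in WT (log2 fold change 2.46 ± 0.09). CYP707A3, an enzyme that breaks down abscisic acid, had 18.9, 18.4 and 14.2 CPM in gyf1 gyf2-1, against 3.801, 3.804 and 2.87 CPM in WT (log2 fold change 2.29 ± 0.18). All 3 genes were above WT in every library, as the choice of the 20 required.

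Among the 20 largest falls were defensins, SAUR growth genes, an expansin (EXPA10) and developmental regulators (GIS, MEE3). GIS, a zinc finger factor of leaf hair development, had 1.26, 1.16 and 0.672 CPM in gyf1 gyf2-1, against 4.599, 4.104 and 5.84 CPM in WT (log2 fold change −2.23 ± 0.28, adjusted p = 4.88e-07). AT2G27402, a gene without a described role here, was the most abundant of them and had 48.3, 41.3 and 44.6 CPM in gyf1 gyf2-1, against 126, 129 and 136 CPM in WT (log2 fold change −1.54 ± 0.10). Both genes were below WT in every library, as the choice of the 20 required, and most of the others averaged a few CPM in WT.

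**Figure D1:**
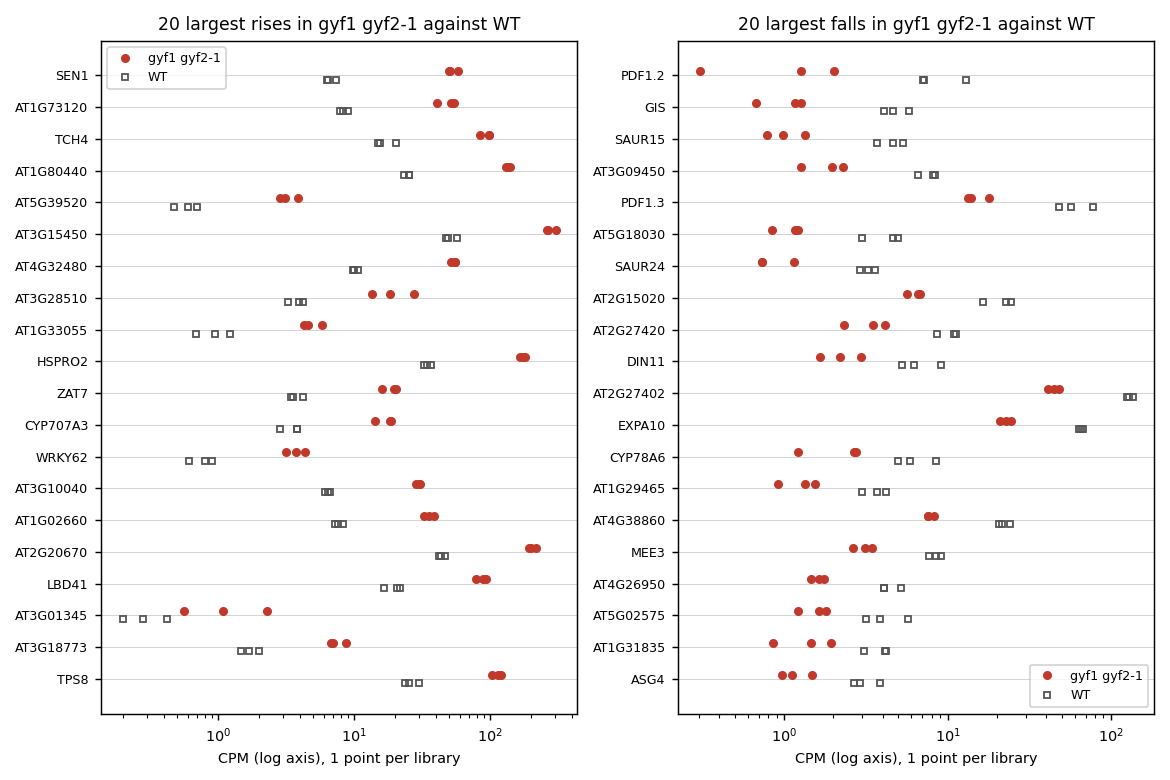
CPM (counts scaled by library size, log axis) of the 20 genes that rose most and the 20 that fell most in gyf1 gyf2-1 against WT, with 1 point per library, filled circles for gyf1 gyf2-1 and open squares for WT. No gene has overlapping groups, which the choice of genes required. SEN1 leads the rises with a log2 fold change of 2.98, and most falls are of genes at a few CPM in WT.

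Several groups of genes were then followed, each by its number of called members and its median log2 fold change, to be read against 14.2% of all genes higher, 11.7% lower and a median of −0.01. The starvation markers moved most. Of 12 members, 10 rose and 1 fell, with a median log2 fold change of 1.43. DIN10, a raffinose-family sugar enzyme induced in the dark, averaged 579 ± 50.4 CPM in gyf1 gyf2-1 and 190.3 ± 18.6 CPM in WT (SD; log2 fold change 1.61 ± 0.08), and DIN2, a beta-glucosidase, averaged 7.72 ± 1.601 CPM in gyf1 gyf2-1 and 2.79 ± 0.641 CPM in WT (log2 fold change 1.46 ± 0.23). The member that fell was DIN11, at 1.65, 2.19 and 2.97 CPM in gyf1 gyf2-1, against 5.26, 6.26 and 9.08 CPM in WT (log2 fold change −1.59 ± 0.35, adjusted p = 0.0027). Although it shares the dark-inducible name, it moved against the other members.

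Trehalose 6-phosphate is a sugar signal that restrains SnRK1, and its synthases come as catalytic and as regulatory proteins. Among the regulatory class II synthases TPS8 to TPS11 rose most. TPS8 had 104, 119.9 and 114 CPM in gyf1 gyf2-1, against 23.7, 29.9 and 25.5 CPM in WT (log2 fold change 2.095 ± 0.10, adjusted p = 1.23e-13), and TPS11 had 52.96, 60.3 and 57.7 CPM in gyf1 gyf2-1, against 16.3, 15.3 and 16.8 CPM in WT (log2 fold change 1.82 ± 0.09). TPS9 and TPS10 rose by less, with log2 fold changes of 1.18 ± 0.09 and 0.94 ± 0.08, ATTPS6 and TPS7 by 0.39 and 0.29, and TPS5 was not called (log2 fold change −0.01). The catalytic synthase TPS1, by contrast, had 46.8, 54.7 and 53.3 CPM in gyf1 gyf2-1, against 55.9, 62.4 and 58.3 CPM in WT and was not called (log2 fold change −0.19 ± 0.08, adjusted p = 0.0648), its libraries not overlapping between the genotypes. The phosphatase ATTPPA, which removes the phosphate from the signal, fell to 29.5, 31.6 and 30.3 CPM in gyf1 gyf2-1, against 43.2, 43.9 and 46.3 CPM in WT (log2 fold change −0.55 ± 0.08). In the whole list 7 of 17 members rose and 1 fell, with a median of 0.03.

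The bZIP factors of the C and S1 groups, which pair with each other and act downstream of SnRK1, split in direction. Among 9 factors, 3 rose and 3 fell. bZIP1, a factor of the starvation response, had 20.3, 20.4 and 19.3 CPM in gyf1 gyf2-1, against 7.603, 6.26 and 6.74 CPM in WT (log2 fold change 1.54 ± 0.13, adjusted p = 6.76e-10). GBF6, also known as bZIP11 and held back by sucrose at translation, had 24.9, 19.8 and 18.4 CPM in gyf1 gyf2-1, against 29.8, 29.1 and 29.7 CPM in WT (log2 fold change −0.49 ± 0.10, adjusted p = 6.80e-04). Every gyf1 gyf2-1 library was thus above WT for bZIP1 and below WT for GBF6. BZO2H3 and BZIP53 rose by log2 fold changes of 0.401 ± 0.08 and 0.27 ± 0.07. The SnRK1 kinases themselves gave small values, 0.105 ± 0.07 for KIN10 (adjusted p = 0.322) and 0.18 ± 0.07 for KIN11 (adjusted p = 0.0583). Their regulatory subunit AKINBETA1 rose to 40.4, 40.5 and 44.2 CPM in gyf1 gyf2-1, against 22.4, 23.8 and 24.1 CPM in WT (log2 fold change 0.83 ± 0.09). HSPRO2, a partner of the SnRK1 complex, rose with 175, 180.3 and 165 CPM in gyf1 gyf2-1, against 36.7, 34.3 and 32.6 CPM in WT (log2 fold change 2.33 ± 0.10).

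Genes that burn amino acids rose nearly throughout the list, 16 of 20 members higher and 0 lower, with a median log2 fold change of 0.52. They cover several routes. In the breakdown of leucine, isoleucine and valine, MCCA, a subunit of methylcrotonyl-CoA carboxylase, had 49.7, 56.4 and 51.6 CPM in gyf1 gyf2-1, against 25.2, 28.98 and 30.9 CPM in WT (log2 fold change 0.89 ± 0.09, adjusted p = 4.73e-09). The dehydrogenase IVD rose by 0.58 ± 0.08, the aminotransferase BCAT-2 by 1.06 ± 0.22 and the keto acid dehydrogenase subunit DIN4 by 0.41 ± 0.09 on the log2 scale. In proline breakdown, ERD5 (proline dehydrogenase) had 342, 356 and 329 CPM in gyf1 gyf2-1, against 194, 189 and 202 CPM in WT (log2 fold change 0.81 ± 0.06, adjusted p = 3.93e-11). GDH2, a subunit of glutamate dehydrogenase, had 375, 429 and 405 CPM in gyf1 gyf2-1, against 224, 229 and 239.6 CPM in WT (log2 fold change 0.804 ± 0.06, adjusted p = 1.24e-10), and its partner GDH1 rose by 0.63 ± 0.07 on the log2 scale. No library of the genotypes overlapped for MCCA, ERD5 or GDH2, and each rise was under 2-fold. MGL, which breaks down methionine, averaged 11.99 ± 1.07 CPM in gyf1 gyf2-1 and 11.9 ± 0.876 CPM in WT and was not called (adjusted p = 0.98).

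**Figure D2:**
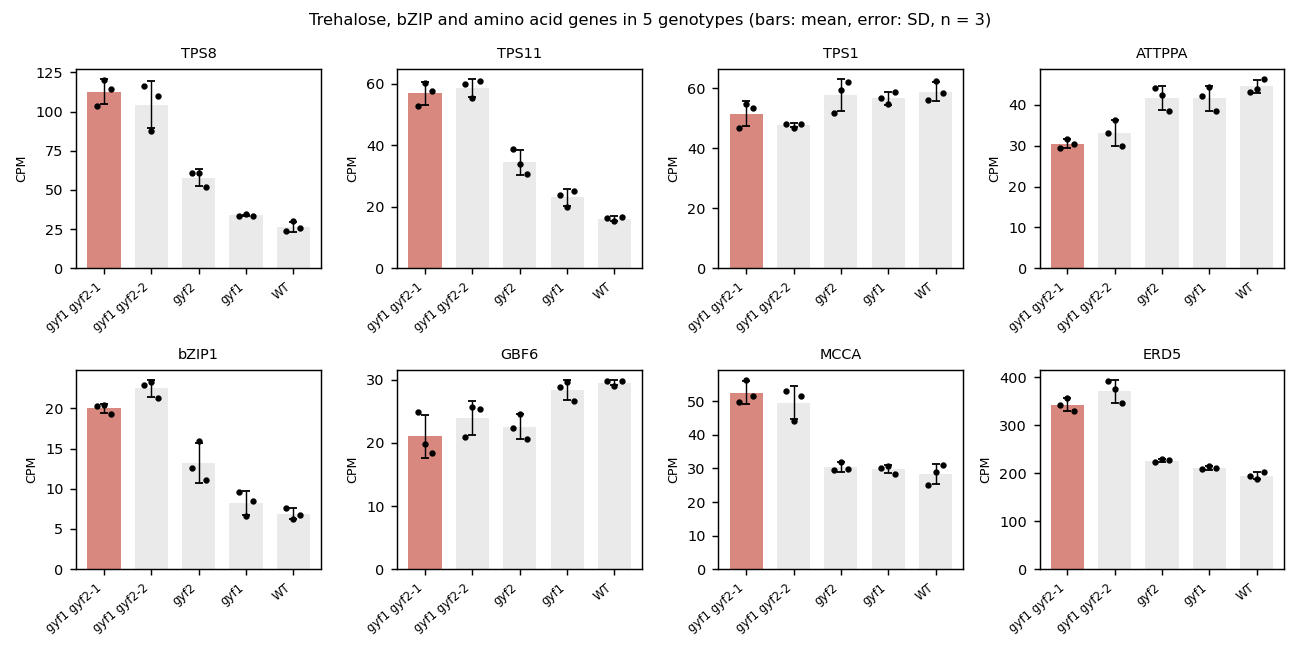
Levels (CPM, linear axes from 0) of 8 genes of trehalose, bZIP and amino acid metabolism in the 5 genotypes; bars are means, error bars SD of 3 libraries and dots single libraries. TPS8, TPS11, bZIP1, MCCA and ERD5 are higher in gyf1 gyf2-1 than in WT, while GBF6 and ATTPPA are lower and TPS1 was not called.

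Autophagy, the delivery of cell contents to the vacuole for reuse, had 9 of 22 members higher and 0 lower, with a median log2 fold change of 0.19. The rises were modest. ATG8E, a membrane-bound tag of the autophagosome, had 44.3, 41.5 and 40.8 CPM in gyf1 gyf2-1, against 35.3, 26.6 and 31.1 CPM in WT (log2 fold change 0.44 ± 0.10, adjusted p = 0.00188), with no overlap between genotypes. The cargo receptor NBR1 rose by 0.37 ± 0.08, ATG8F by 0.38 ± 0.07 and AtATG18a by 0.38 ± 0.08 on the log2 scale. APG7, the enzyme that activates the ATG8 tag, averaged 16.9 ± 0.408 CPM in gyf1 gyf2-1 and 16.4 ± 1.01 CPM in WT and was not called (adjusted p = 0.81).

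Starch and sugar genes moved less uniformly. In starch breakdown 8 of 17 members rose and 2 fell, and 1 fell without WT replicate 1, WT replicate 2 or gyf1 gyf2-1 replicates 2 or 3. The amylases BAM1 (0.41 ± 0.07 on the log2 scale), AMY3 (0.36 ± 0.08) and BAM5 (1.59 ± 0.38) rose, while CT-BMY, the beta-amylase of the chloroplast, had 229, 213 and 233 CPM in gyf1 gyf2-1, against 264, 333 and 297 CPM in WT (log2 fold change −0.41 ± 0.08, adjusted p = 8.19e-04). GBSS1, the synthase that makes the unbranched part of starch, fell by 0.36 ± 0.08 on the log2 scale. Among sugar transporters 11 of 19 rose and 1 fell, with a median of 0.25; the fall was not called without gyf1 gyf2-1 replicate 2. The hexose carrier STP1 had 98.7, 104 and 95.03 CPM in gyf1 gyf2-1, against 62.04, 58.6 and 60.3 CPM in WT (log2 fold change 0.72 ± 0.08, adjusted p = 7.37e-08), all above WT. MSS1, also called STP13, rose by 0.87 ± 0.13, the carrier ERD6 by 0.72 ± 0.07 and the sucrose carrier SUC1 by 0.57 ± 0.07.

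**Figure D3:**
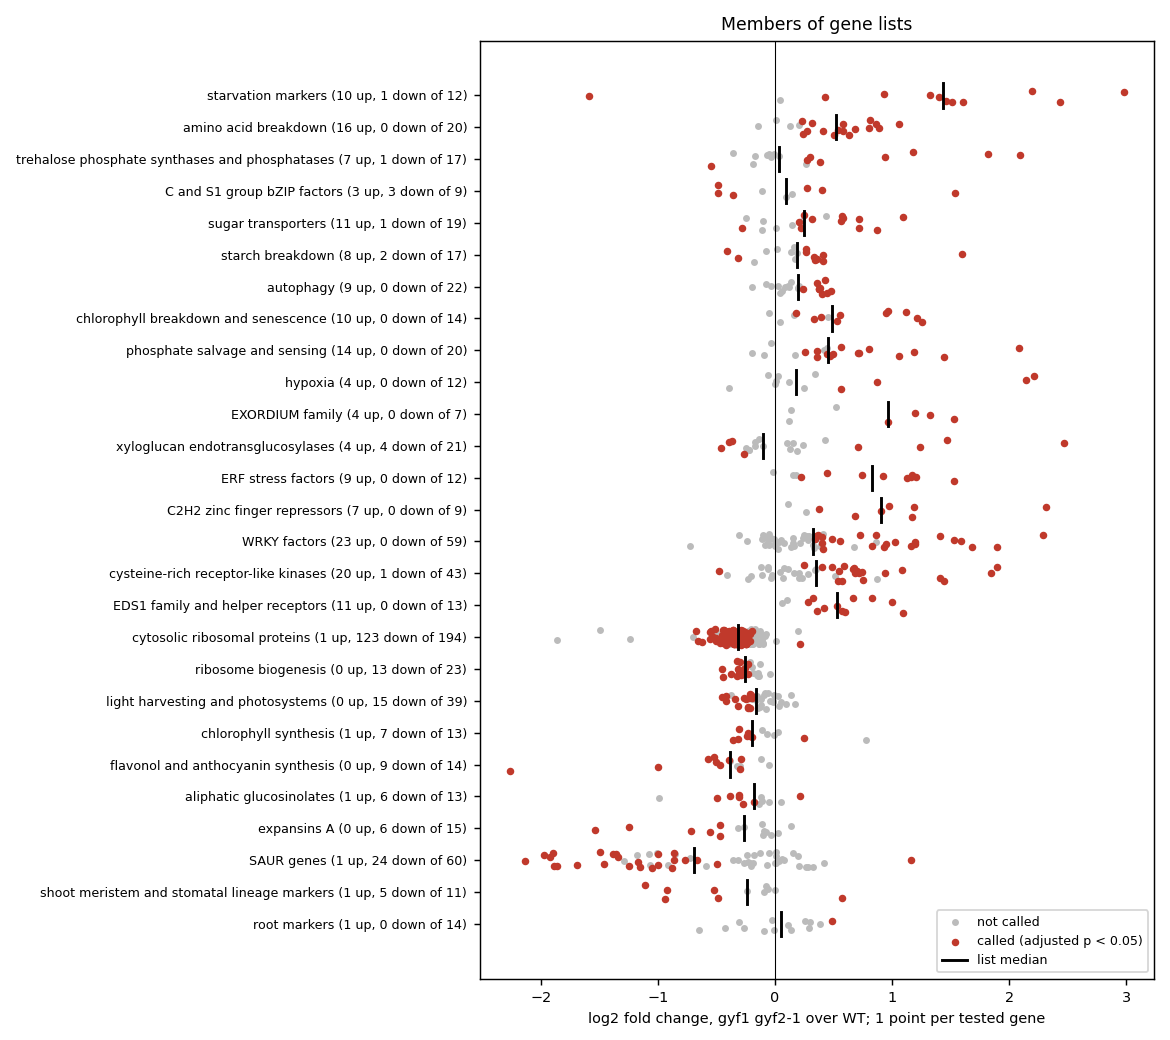
Log2 fold changes of gyf1 gyf2-1 over WT for the tested members of 27 gene lists, with 1 point per gene, red where called and grey where not, and a black bar at the list median. Starvation markers lie at a median of 1.43, cytosolic ribosomal proteins crowd their median of −0.32, and SAUR genes spread down to −2.13.

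Called genes of protein synthesis were mostly lower. Of 210 loci for cytosolic ribosomal proteins 194 were tested, and 123 of them were lower in gyf1 gyf2-1 and 1 higher, a call lost without WT replicates 2 or 3 or gyf1 gyf2-1 replicates 1 or 3, with a median log2 fold change of −0.32. RP1, a large-subunit protein, had 707, 665 and 744 CPM in gyf1 gyf2-1, against 894, 953 and 871 CPM in WT (log2 fold change −0.36 ± 0.06, adjusted p = 4.36e-05). The large-subunit protein emb2386 had 765, 641 and 652 CPM in gyf1 gyf2-1, against 1027, 903 and 878 CPM in WT (log2 fold change −0.45 ± 0.08), and AT1G70600 had 471, 378 and 427 CPM in gyf1 gyf2-1, against 669.9, 591 and 549 CPM in WT (log2 fold change −0.504 ± 0.08). These genes were highly expressed and each fell by well under 2-fold, with no overlap between the genotypes. The number called depended on the libraries used, with 71 lower without WT replicate 1, 73 without gyf1 gyf2-1 replicate 2 and 78 without its replicate 3. It was 165 without gyf1 gyf2-1 replicate 1 and 126 without both replicates that stood apart.

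Ribosome biogenesis, which makes and trims ribosomal RNA in the nucleolus, had 13 of 23 members lower and 0 higher, with a median of −0.25. FIB2, a fibrillarin that methylates ribosomal RNA, had 94.997, 81.5 and 91.8 CPM in gyf1 gyf2-1, against 127, 127 and 111 CPM in WT (log2 fold change −0.44 ± 0.08, adjusted p = 2.25e-04). RID2, a methyltransferase-like protein of the nucleolus, had 16.6, 16.6 and 17.8 CPM in gyf1 gyf2-1, against 24.5, 22.97 and 22.2 CPM in WT (log2 fold change −0.45 ± 0.10, adjusted p = 0.00121). The groups did not overlap for FIB2 or RID2. PUM24, FIB1 and the nucleolin NUC-L1 fell by 0.38, 0.30 and 0.29 on the log2 scale, whereas PUM23 averaged 38.2 ± 2.97 CPM in gyf1 gyf2-1 and 42.3 ± 2.49 CPM in WT and was not called (adjusted p = 0.183). Loci of small nucleolar RNAs, the guides of ribosomal RNA modification, were also counted. Of 56 such loci 20 (35.7%) were lower and 0 higher, with a median of −0.91. The libraries were made from mRNA, and whether these reads came from the mature guides or from overlapping transcripts was not tested. Without WT replicate 1 the number lower was 13, and without both replicates that stood apart it was 12. Counts for other non-coding classes are to be read against the 11.7% of all tested genes that were lower. Of 24 microRNA genes 5 (20.8%) were lower and 0 higher, with a median of −0.46 and 3 lower without WT replicate 1. Of 213 long non-coding RNAs 20 were lower and 0 higher, with a median of −0.205. Their share lower, 9.39%, was below that of all genes. The lower count was 9 without gyf1 gyf2-1 replicate 2 and 11 without WT replicate 1. It was 13 without WT replicate 2 or gyf1 gyf2-1 replicate 3. Transfer RNA genes had 2 of 4 lower, a count not recomputed with libraries left out. Non-coding genes took 0.289 to 0.299% of counts in gyf1 gyf2-1, against 0.299 to 0.320% in WT, and the part of that share in the small nucleolar RNA counts was not tested.

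Translation factors split. Of 16 genes for cap binding and initiation, 5 (31.25%) were lower and 3 (18.75%) higher, against 11.7% and 14.2% of all tested genes. The higher share was thus near that of all genes, and its count was 1 without gyf1 gyf2-1 replicates 2 or 3. The poly(A)-binding protein PAB8 had 151, 155 and 174 CPM in gyf1 gyf2-1, against 207, 232 and 206 CPM in WT (log2 fold change −0.43 ± 0.07, adjusted p = 2.11e-05). The cap-binding proteins EIF4E and LSP1 fell by 0.39 and 0.41, and the scaffold eIFiso4G2 by 0.54, on the log2 scale. S6K2, a kinase that TOR activates on the way to ribosome production, moved the other way at 33.6, 29.6 and 28.7 CPM in gyf1 gyf2-1, against 15.3, 16.4 and 16.1 CPM in WT (log2 fold change 0.94 ± 0.10, adjusted p = 3.53e-08). Neither NCBP, the plant relative of the animal 4EHP cap-binding protein (log2 fold change 0.15 ± 0.07, adjusted p = 0.102), nor TOR itself (log2 fold change 0.42 ± 0.17, adjusted p = 0.0886) was called.

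Promoters of genes on either side were read from the RefSeq copy of the genome (TAIR10.1), whose chromosomes hold the TAIR10 gene coordinates used here. A window of 250 bases before and 50 after the gene start was taken for 20218 protein-coding genes, and each motif was searched on both strands. TGGGCC, a motif of growth-related promoters, stood in 67.5% of the ribosomal protein windows and 65.2% of the ribosome biogenesis windows, against 18.21% of all windows. AAACCCT, the telomere-like box, stood in 52.1% and 60.9%, against 9.21% of all windows. Over the whole comparison, TGGGCC was found in 10.8% of windows of genes higher in gyf1 gyf2-1 and in 24.6% of those lower. AAACCCT was found in 5.16% of windows of the higher genes and 13.7% of the lower. The lower genes include the 123 ribosomal protein and 13 ribosome biogenesis genes, so their shares are not separate from those of the lists. A match is a description of letters, not a binding site or a cause. The stretches just before the start of a ribosomal protein gene and a pair of nucleolar genes that fell are shown because all 3 hold TGGGCC and FIB1 also AAACCCT, which stand in capitals on either strand.
RP1 (chr1:16266403-16266552, plus strand): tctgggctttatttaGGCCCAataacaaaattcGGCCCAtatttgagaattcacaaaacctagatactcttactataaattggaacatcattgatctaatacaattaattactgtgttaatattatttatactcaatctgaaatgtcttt
FIB1 (chr5:21293932-21294146, plus strand): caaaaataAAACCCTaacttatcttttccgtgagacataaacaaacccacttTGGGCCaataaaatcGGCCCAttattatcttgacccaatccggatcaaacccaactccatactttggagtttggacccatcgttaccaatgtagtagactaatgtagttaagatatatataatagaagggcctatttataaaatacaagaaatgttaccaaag
RID2 (chr5:23204277-23204376, plus strand): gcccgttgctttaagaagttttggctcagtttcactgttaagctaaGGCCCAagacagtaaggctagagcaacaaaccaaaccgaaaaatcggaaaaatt

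The next list joins RNA decay genes with CCCH zinc finger genes, and its called members were higher. Of its 23 members 8 rose and 0 fell, with a median log2 fold change of 0.18. SZF1, a CCCH zinc finger protein induced by salt and by pathogens, had 157, 164 and 147 CPM in gyf1 gyf2-1, against 48.2, 41.5 and 45.2 CPM in WT (log2 fold change 1.79 ± 0.08, adjusted p = 2.25e-16), and its relative CZF1 rose by 0.99 ± 0.07 on the log2 scale. AT2G39260, a gene of nonsense-mediated decay, rose by 0.400 ± 0.09. The exonuclease XRN4 averaged 70.2 ± 2.905 CPM in gyf1 gyf2-1 and 63.7 ± 2.299 CPM in WT and was not called (adjusted p = 0.171). Genes with a conserved peptide in an upstream reading frame, whose translation answers to sucrose, polyamines or phosphocholine, went both ways, with 9 of 18 higher and 5 lower. Some of these members, such as bZIP1 and XPL1, are also counted in the bZIP and phosphocholine lists. SAC51, a factor that answers to thermospermine, rose to 85.996, 86.1 and 92.1 CPM in gyf1 gyf2-1, against 59.6, 60.96 and 62.9 CPM in WT (log2 fold change 0.53 ± 0.06, adjusted p = 1.73e-07). The list's gene AT5G15950 had 42.3, 41.5 and 46.8 CPM in gyf1 gyf2-1, against 72.9, 76.1 and 75.8 CPM in WT (log2 fold change −0.78 ± 0.07, adjusted p = 1.36e-09), while SAMDC, a polyamine synthesis enzyme, rose by 0.42 ± 0.06. In phosphocholine synthesis, XPL1, a phosphoethanolamine methyltransferase, had 77.1, 87.7 and 101 CPM in gyf1 gyf2-1, against 140.2, 192 and 145 CPM in WT (log2 fold change −0.84 ± 0.11, adjusted p = 8.40e-06), whereas AT1G73600 of the same list had 565, 491 and 499.6 CPM in gyf1 gyf2-1, against 266, 183 and 234 CPM in WT (log2 fold change 1.19 ± 0.10, adjusted p = 2.25e-08). The pair moved in opposite directions, each without overlap.

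Called photosynthesis genes were mostly lower. Of 39 genes for light harvesting and the photosystems 15 fell and 0 rose, with a median of −0.16, but the number lower was 5 without gyf1 gyf2-1 replicate 2, 5 without its replicate 3 and 6 without WT replicate 1. NPQ4, the PsbS protein that sheds excess light, had 1069, 941 and 969 CPM in gyf1 gyf2-1, against 1321, 1346 and 1313 CPM in WT (log2 fold change −0.42 ± 0.06, adjusted p = 1.03e-05), and the antenna protein LHCB6 fell by 0.34 ± 0.08 on the log2 scale. Chlorophyll synthesis had 7 of 13 members lower and 1 higher. PCB2, an enzyme late in that pathway, had 85.3, 79.3 and 79.9 CPM in gyf1 gyf2-1, against 103, 102 and 109 CPM in WT (log2 fold change −0.36 ± 0.06, adjusted p = 1.05e-04), below WT in every library. In the Calvin cycle 7 of 16 members fell and 1 rose. The small subunits of Rubisco, which are close in sequence so that reads may be shared between them, went in opposite directions, and their values are uncertain for that reason. RBCS1A had 19682, 18058 and 18564 CPM in gyf1 gyf2-1, against 15425, 16322 and 15792 CPM in WT (log2 fold change 0.24 ± 0.06), and RBCS1B had 777, 696 and 769 CPM in gyf1 gyf2-1, against 1094, 1208 and 1132 CPM in WT (log2 fold change −0.61 ± 0.07).

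Senescence genes rose, 10 of 14 higher and 0 lower, with a median of 0.49. NAP, a NAC factor of leaf ageing, had 6.42, 9.497 and 6.16 CPM in gyf1 gyf2-1, against 3.801, 2.502 and 3.18 CPM in WT (log2 fold change 1.21 ± 0.22, adjusted p = 1.70e-04). NAC6, the factor also named ORE1, had 14.7, 20.9 and 16.1 CPM in gyf1 gyf2-1, against 7.46, 6.76 and 7.38 CPM in WT (log2 fold change 1.25 ± 0.13, adjusted p = 2.14e-08). Both factors were above WT in each library. SAG13 rose by 1.12 ± 0.28 and SAG21 by 0.55 ± 0.08, whereas NYE1, which starts the removal of chlorophyll, averaged 22.1 ± 1.85 CPM in gyf1 gyf2-1 and 19.8 ± 0.497 CPM in WT and was not called (adjusted p = 0.229).

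Growth genes fell most among the SAUR genes, small proteins that auxin induces and that promote cell expansion. Of 82 SAUR loci 60 were tested, and 24 were lower and 1 higher (none higher without both replicates that stood apart), with a median of −0.69. SAUR15 had 0.988, 1.34 and 0.784 CPM in gyf1 gyf2-1, against 5.303, 3.704 and 4.62 CPM in WT (log2 fold change −2.13 ± 0.28, adjusted p = 1.10e-06), below WT in every library. Its neighbour AT4G38860 had 7.63, 8.28 and 7.56 CPM in gyf1 gyf2-1, against 23.9, 20.6 and 21.5 CPM in WT (log2 fold change −1.49 ± 0.13). AT4G38840, the next of that run, had 11.1, 11.4 and 11.99 CPM in gyf1 gyf2-1, against 28.7, 30.8 and 28.9 CPM in WT (log2 fold change −1.36 ± 0.10). Many SAUR genes lie in runs of near-identical copies, among which reads cannot be told apart with certainty. On chromosome 1, every tested gene in chr1:10300631-10323239 was counted, whether or not it is a SAUR gene, and 8 of 9 were lower. The exception was AT1G29470, named after its values were seen. It had 256 ± 14.7 CPM in gyf1 gyf2-1 and 244 ± 29.2 CPM in WT (adjusted p = 0.53). In chr5:5962773-5984308 on chromosome 5, counted in the same way and holding genes of other names such as DRT101, 3 of 9 were lower. Among them was AT5G18030 at 1.21, 1.16 and 0.841 CPM in gyf1 gyf2-1, against 4.97, 3.003 and 4.62 CPM in WT (log2 fold change −1.97 ± 0.27, adjusted p = 2.18e-06).

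Called wall-loosening genes went both ways. Among alpha-expansins, which loosen walls during growth, 6 of 15 fell and 0 rose. EXPA10 had 24.4, 20.9 and 22.7 CPM in gyf1 gyf2-1, against 63.8, 67.7 and 65.7 CPM in WT (log2 fold change −1.53 ± 0.08, adjusted p = 1.41e-14), and EXPA5 and EXPA1 fell by 1.25 and 0.72 on the log2 scale. Of 21 xyloglucan endotransglucosylases, which cut and rejoin wall chains, 4 rose and 4 fell, the lower count being 2 without WT replicate 3 or without both replicates that stood apart. Each share was 19.0%, against 14.2% of all tested genes higher and 11.7% lower, so nothing is drawn from these counts. TCH4, a touch-induced member, had 98.8, 98.4 and 84.5 CPM in gyf1 gyf2-1, against 20.2, 15.02 and 15.6 CPM in WT (log2 fold change 2.47 ± 0.17, adjusted p = 3.09e-07), while XTH32 fell by 0.39 ± 0.08. The EXORDIUM family, extracellular proteins tied to growth under low carbon, had 4 of 7 members higher and 0 lower, with a median of 0.96. PHI-1 had 17.7, 20.03 and 16.6 CPM in gyf1 gyf2-1, against 7.18, 6.61 and 4.94 CPM in WT (log2 fold change 1.53 ± 0.14, adjusted p = 1.62e-09), and EXO rose by 1.198 ± 0.08. Touch and calcium sensors had 4 of 12 members higher and 1 lower, the lower call lost without WT replicates 1 or 2 or gyf1 gyf2-1 replicates 2 or 3. CML38 had 16.6, 14.98 and 11.9 CPM in gyf1 gyf2-1, against 4.69, 3.35 and 2.12 CPM in WT (log2 fold change 2.08 ± 0.25, adjusted p = 9.66e-06) and TCH3 rose by 1.02 ± 0.10.

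Called genes of the stomatal lineage were lower. Their list, which also holds shoot meristem and epidermis markers, had 5 of 11 members lower and 1 higher, the higher call lost without WT replicate 3 or gyf1 gyf2-1 replicates 2 or 3. EPF2, a peptide made by early lineage cells that limits the number of stomata, had 2.799, 2.19 and 3.03 CPM in gyf1 gyf2-1, against 6.76, 5.66 and 4.94 CPM in WT (log2 fold change −1.11 ± 0.21, adjusted p = 1.74e-04). SPCH, the factor that starts the lineage, had 10.6, 10.2 and 10.98 CPM in gyf1 gyf2-1, against 16.1, 14.3 and 15.1 CPM in WT (log2 fold change −0.52 ± 0.11, adjusted p = 0.0011), and the receptor-like protein TMM had 15.8, 16.98 and 19.4 CPM in gyf1 gyf2-1, against 22.9, 25.5 and 24.7 CPM in WT (log2 fold change −0.49 ± 0.09, adjusted p = 2.37e-04). No library overlapped for EPF2, SPCH or TMM. MUTE, the next factor in the lineage, averaged 1.71 ± 0.436 CPM in gyf1 gyf2-1 and 3.23 ± 0.418 CPM in WT (adjusted p = 0.00721), a call lost without gyf1 gyf2-1 replicate 1 and without both replicates that stood apart. The epidermis factors ATML1 and PDF2, named after their values were seen like SCR and SHR of the root list, averaged 85.7 and 86.6 CPM in gyf1 gyf2-1 and 85.7 and 91.2 CPM in WT and were not called. The summed level of the list was 244.65 to 270.13 CPM in gyf1 gyf2-1 and 264.84 to 293.49 CPM in WT. Among 26 cell division genes 4 were lower and 0 higher, 2 lower without both replicates that stood apart.

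Root markers served to ask whether the seedlings of the 2 genotypes held a similar share of root. Of 14 markers, 1 was called, PYK10, the main glucosidase of ER bodies, at 3510, 3615 and 3559 CPM in gyf1 gyf2-1, against 2290, 2607 and 2713 CPM in WT (log2 fold change 0.49 ± 0.08, adjusted p = 2.50e-05). The summed level of all 14 was 3641.04 to 3744.29 CPM in gyf1 gyf2-1 and 2404.02 to 2854.25 CPM in WT, without overlap and mostly from PYK10. Without PYK10 the summed level of the other 13 was 129.49 to 147.09 CPM in gyf1 gyf2-1 and 114.42 to 141.55 CPM in WT. No tested root marker was at 0. The root factors SCR and SHR averaged 40.8 and 12.8 CPM in gyf1 gyf2-1 and 40.9 and 13.1 CPM in WT. None of the 11 seed maturation markers had enough counts for a test.

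The immune lists held many rises. Of 59 WRKY factors tested, 23 were higher and 0 lower, with a median log2 fold change of 0.32. WRKY46 had 20.3, 18.5 and 13.6 CPM in gyf1 gyf2-1, against 5.87, 4.96 and 5.41 CPM in WT (log2 fold change 1.69 ± 0.16, adjusted p = 5.22e-09), and WRKY70, which sides with salicylic acid over jasmonate, had 132, 137 and 107 CPM in gyf1 gyf2-1, against 50.1, 34.5 and 45.6 CPM in WT (log2 fold change 1.53 ± 0.15, adjusted p = 4.31e-06). Each factor was above WT in all libraries. The EDS1 family and its helper receptors, which relay the signal of intracellular immune receptors, had 11 of 13 members higher and 0 lower. EDS1 had 56.7, 63.2 and 49.7 CPM in gyf1 gyf2-1, against 37.2, 35.2 and 39.4 CPM in WT (log2 fold change 0.601 ± 0.08, adjusted p = 2.74e-06). The helpers ADR1 and ADR1-L1 rose by 0.83 ± 0.09 and 0.997 ± 0.08. In salicylic and N-hydroxypipecolic acid synthesis and signalling 17 of 20 members rose and 0 fell. EDS16, the isochorismate synthase that makes most salicylic acid, had 39.3, 49.3 and 39.4 CPM in gyf1 gyf2-1, against 23.7, 27.03 and 21.2 CPM in WT (log2 fold change 0.83 ± 0.15, adjusted p = 0.00102), and FMO1, which makes N-hydroxypipecolic acid, had 14.6, 16.98 and 16.2 CPM in gyf1 gyf2-1, against 6.52, 9.71 and 8.28 CPM in WT (log2 fold change 0.97 ± 0.19, adjusted p = 7.82e-04).

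Receptors at the cell surface followed. Of 43 cysteine-rich receptor-like kinases 20 rose and 1 fell, with a median of 0.35. CRK4 had 18.3, 20.7 and 12.8 CPM in gyf1 gyf2-1, against 6.01, 3.904 and 4.41 CPM in WT (log2 fold change 1.85 ± 0.17, adjusted p = 2.25e-09). Of 19 pattern receptors and immune kinases 11 rose and 0 fell. SOBIR1, a co-receptor of receptor-like proteins, had 111, 107 and 93.8 CPM in gyf1 gyf2-1, against 49.6, 47.1 and 54.8 CPM in WT (log2 fold change 1.04 ± 0.09, adjusted p = 2.10e-09), and RBOHD, the oxidase behind the immune burst of reactive oxygen, had 136, 143 and 138 CPM in gyf1 gyf2-1, against 72.7, 84.3 and 87.8 CPM in WT (log2 fold change 0.77 ± 0.07, adjusted p = 4.11e-09). Both were above WT without overlap. FLS2, the flagellin receptor, averaged 21.7 ± 2.45 CPM in gyf1 gyf2-1 and 24.1 ± 3.58 CPM in WT and was not called (adjusted p = 0.355).

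TTGACT, the core letters of the W-box that WRKY factors bind, stood in 53.9% of the windows of the EDS1 and helper list, 52.6% of the pattern receptor list and 48.8% of the cysteine-rich kinases, against 22.2% of all windows. In the other immune lists the share was 44.4% for the C2H2 repressors, 30.5% for the WRKY factors, 28.6% for the jasmonate list, 25% each for the ERF, salicylic and defensin lists, 18.18% for the ER body list and 15.4% for the camalexin list. Among genes higher in gyf1 gyf2-1, which include the members of these lists that rose, the share was 27.1% and among those lower 17.3%. The variant TTGACC stood in 16.7% of the higher, 12.1% of the lower and 14.4% of all windows. CACGTG, the G-box bound by bZIP and bHLH factors, stood in 9.77% of the higher, 8.96% of the lower and 8.63% of all windows. In the small sets of largest changes it stood in 5 of 20 rises (25%) and 2 of the 19 falls that had a window (10.5%). The sugar-response letters TATCCA stood in 20.2% of the higher, 15.97% of the lower and 16.4% of all windows. For ACTCAT, a motif that S1 bZIP factors bind, the shares were 13.97%, 13.8% and 14.1%, and for AATATCT, the evening element, 14.4%, 11.4% and 11.8%. The stretches before 3 immune genes that rose (TTGACT in capitals) and 3 of the 20 largest rises (CACGTG in capitals) are shown as examples that hold the letters.
EDS1 (chr3:17758148-17758257, minus strand): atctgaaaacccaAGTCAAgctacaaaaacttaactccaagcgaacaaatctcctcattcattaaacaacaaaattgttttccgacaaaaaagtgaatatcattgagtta
RBOHD (chr5:19396981-19397040, plus strand): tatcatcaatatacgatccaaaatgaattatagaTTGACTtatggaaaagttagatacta
WRKY62 (chr5:352096-352205, minus strand): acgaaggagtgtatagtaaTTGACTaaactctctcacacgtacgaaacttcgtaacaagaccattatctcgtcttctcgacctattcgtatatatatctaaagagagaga
AT1G02660 (chr1:575086-575235, minus strand): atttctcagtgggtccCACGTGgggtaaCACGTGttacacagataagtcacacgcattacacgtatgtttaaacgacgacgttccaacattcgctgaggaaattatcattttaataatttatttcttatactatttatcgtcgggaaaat
AT1G73120 (chr1:27498063-27498162, minus strand): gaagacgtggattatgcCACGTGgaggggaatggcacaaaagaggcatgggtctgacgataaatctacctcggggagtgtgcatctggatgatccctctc
CYP707A3 (chr5:18371022-18371151, minus strand): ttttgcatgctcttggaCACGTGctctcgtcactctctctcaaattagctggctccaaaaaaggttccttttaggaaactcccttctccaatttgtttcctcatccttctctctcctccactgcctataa

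Ethylene response factors and C2H2 zinc finger repressors, which respond quickly to wounding and microbes, were higher. Of 12 ERF factors 9 rose and 0 fell, with a median of 0.83. ERF6 had 24.8, 24.8 and 21.7 CPM in gyf1 gyf2-1, against 8.401, 7.46 and 8.86 CPM in WT (log2 fold change 1.53 ± 0.13, adjusted p = 2.83e-10). Of 9 zinc finger genes 7 rose and 0 fell. ZAT7 had 19.6, 20.4 and 16.02 CPM in gyf1 gyf2-1, against 4.22, 3.55 and 3.45 CPM in WT (log2 fold change 2.31 ± 0.14, adjusted p = 2.76e-13), and STZ had 37.1, 42.1 and 32.6 CPM in gyf1 gyf2-1, against 17.41, 17.42 and 14.6 CPM in WT (log2 fold change 1.17 ± 0.12, adjusted p = 5.89e-08). Each of these factors was above WT in every library.

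Not every defence branch rose. Plant defensins and their ethylene and jasmonate regulators had 5 of 8 members lower and 0 higher, with a median of −1.29. PDF1.3 had 17.8, 13.9 and 13.4 CPM in gyf1 gyf2-1, against 78.2, 56.9 and 47.9 CPM in WT (log2 fold change −2.02 ± 0.23, adjusted p = 5.25e-05), and PDF1.2, PDF1.2b and PDF1.2c fell by more, though these copies are nearly identical and reads may be split between them. In jasmonate synthesis and its JAZ repressors 10 of 21 members rose and 0 fell. LOX2, an early enzyme of jasmonate synthesis, had 621, 638 and 655 CPM in gyf1 gyf2-1, against 278, 293 and 366 CPM in WT (log2 fold change 1.03 ± 0.11, adjusted p = 1.42e-06), and VSP2, a storage protein that jasmonate induces, had 10.8, 15.5 and 9.47 CPM in gyf1 gyf2-1, against 5.16, 4.304 and 4.35 CPM in WT (log2 fold change 1.37 ± 0.21, adjusted p = 3.57e-05). ER body and jacalin lectin genes had 8 of 11 members higher and 0 lower. JAL23, a jacalin lectin, had 3.95, 4.26 and 4.87 CPM in gyf1 gyf2-1, against 2.21, 1.401 and 1.75 CPM in WT (log2 fold change 1.28 ± 0.31, adjusted p = 0.0028).

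Secondary metabolism lists differed in direction. Flavonol and anthocyanin synthesis had 9 of 14 members lower and 0 higher, with a median of −0.39. MYB111, which switches on flavonol genes, had 3.73, 4.87 and 4.03 CPM in gyf1 gyf2-1, against 6.85, 9.51 and 8.92 CPM in WT (log2 fold change −1.001 ± 0.17, adjusted p = 4.79e-05), and FLS1, the flavonol synthase, had 112, 107 and 115 CPM in gyf1 gyf2-1, against 159, 162 and 141 CPM in WT (log2 fold change −0.47 ± 0.07, adjusted p = 8.48e-06). The enzyme TT7 and the sugar transferase UGT78D1 fell by 0.57 and 0.52, and chalcone synthase TT4, the entry enzyme, by 0.29. Aliphatic glucosinolate genes had 6 of 13 members lower and 1 higher, the higher call lost without WT replicate 1 or gyf1 gyf2-1 replicate 3. CYP79F1, which starts the core pathway, had 100.3, 95.9 and 108 CPM in gyf1 gyf2-1, against 120.0, 129.9 and 128 CPM in WT (log2 fold change −0.31 ± 0.07, adjusted p = 9.17e-04). The camalexin and indolic glucosinolate list, a tryptophan-derived branch of defence compounds, had 6 of 13 members higher and 1 lower, with a median of 0.25. Its higher count was 2 without WT replicate 1 or gyf1 gyf2-1 replicate 2 and 3 without WT replicate 2, and the lower call was lost without WT replicate 1 or gyf1 gyf2-1 replicates 2 or 3.

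Nutrient lists varied. Phosphate salvage and sensing had 14 of 20 members higher and 0 lower, with a median of 0.46. RNS1, a secreted ribonuclease, had 4.34, 5.78 and 5.099 CPM in gyf1 gyf2-1, against 1.596, 1.35 and 0.584 CPM in WT (log2 fold change 2.08 ± 0.31, adjusted p = 2.17e-05), and PLDP2, a phospholipase that frees phosphate from membranes, had 17.2, 17.3 and 16.2 CPM in gyf1 gyf2-1, against 6.34, 7.71 and 8.33 CPM in WT (log2 fold change 1.18 ± 0.13, adjusted p = 5.67e-08). PAP17, an acid phosphatase, rose by 0.72 ± 0.08. PHR1, the master regulator of the response, averaged 47.1 ± 2.49 CPM in gyf1 gyf2-1 and 48.1 ± 0.978 CPM in WT and was not called (adjusted p = 0.782). Nitrate uptake and assimilation had 7 of 17 members higher and 2 lower. NIA1, a nitrate reductase, had 393, 492 and 474 CPM in gyf1 gyf2-1, against 260.4, 299 and 275 CPM in WT (log2 fold change 0.704 ± 0.08, adjusted p = 4.87e-08). The iron list had 4 of 13 higher and 2 lower, with 2 higher without WT replicate 1 or gyf1 gyf2-1 replicates 2 or 3 and 4 lower without WT replicate 3. FER1 and FER3, ferritins that store iron, fell by 0.33 and 0.42 on the log2 scale. Aquaporins had 7 of 19 higher and 1 lower. The lower count was 0 without WT replicate 2 or gyf1 gyf2-1 replicate 3, 2 without WT replicate 1 or gyf1 gyf2-1 replicate 1, and 3 with DESeq2 or the replicate block. The member TIP2;2, a water channel of the vacuole, had 201, 159.8 and 191 CPM in gyf1 gyf2-1, against 106, 119 and 114 CPM in WT (log2 fold change 0.698 ± 0.10, adjusted p = 3.57e-05).

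In the hypoxia list 4 of 12 members were higher and 0 lower. The repressors HRA1 (AT3G10040) and LBD41 led, with 30.02, 28.5 and 30.8 CPM in gyf1 gyf2-1, against 6.43, 6.71 and 6.16 CPM in WT for HRA1 (log2 fold change 2.21 ± 0.10, adjusted p = 2.17e-15) and 94.1, 78.2 and 88.8 CPM in gyf1 gyf2-1, against 20.9, 21.8 and 16.6 CPM in WT for LBD41 (log2 fold change 2.14 ± 0.10, adjusted p = 3.02e-14). ADH1, alcohol dehydrogenase and a classic hypoxia enzyme, averaged 25.05 ± 2.69 CPM in gyf1 gyf2-1 and 26.1 ± 3.45 CPM in WT and was not called (adjusted p = 0.785). Both regulators thus stood well above WT in a list whose best known enzyme was not called. In the circadian clock list 7 of 24 members rose and 6 fell, the lower count being 2 without WT replicate 3 and 3 without WT replicate 1 or gyf1 gyf2-1 replicates 2 or 3. PRR5, an evening repressor, had 26.3, 29.8 and 28.5 CPM in gyf1 gyf2-1, against 18.4, 14.4 and 16.8 CPM in WT (log2 fold change 0.77 ± 0.10, adjusted p = 1.42e-06), GI rose by 0.47 ± 0.09 and RVE8, a morning activator, fell by 0.38 ± 0.08.

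Among hormone lists, auxin response had 6 of 19 members higher and 0 lower. WES1, an enzyme of the GH3 family that conjugates auxin and so removes it, had 39.5, 44.5 and 44.4 CPM in gyf1 gyf2-1, against 19.1, 22.4 and 23.1 CPM in WT (log2 fold change 0.99 ± 0.09, adjusted p = 1.52e-09), and its relative DFL1 rose by 0.79 ± 0.07. Gibberellin and brassinosteroid genes had 5 of 19 higher and 3 lower, 3 higher without gyf1 gyf2-1 replicate 2. GA2OX2, which inactivates gibberellin, had 6.91, 5.48 and 5.49 CPM in gyf1 gyf2-1, against 2.82, 2.15 and 3.66 CPM in WT (log2 fold change 1.06 ± 0.19, adjusted p = 1.33e-04). RNA silencing genes had 6 of 25 higher and 0 lower, 3 higher without gyf1 gyf2-1 replicates 2 or 3. RDR1, an RNA-dependent RNA polymerase active against viruses, had 14.8, 15.2 and 17.8 CPM in gyf1 gyf2-1, against 8.73, 10.2 and 9.98 CPM in WT (log2 fold change 0.73 ± 0.13, adjusted p = 1.08e-04).

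The labels do not say which loci are mutated, and a transcript can persist in a mutant, so levels of the GYF domain genes check nothing about the label. AT1G24300 had 35.2, 38.1 and 38.05 CPM in gyf1 gyf2-1, against 33.6, 49.6 and 44.6 CPM in WT (log2 fold change −0.198 ± 0.10, adjusted p = 0.158). AT1G27430 had 32.2, 39.1 and 36.4 CPM in gyf1 gyf2-1, against 37.9, 48.4 and 45.4 CPM in WT (log2 fold change −0.29 ± 0.12, adjusted p = 0.0727). AT5G42950 had 78.8, 100.1 and 96.2 CPM in gyf1 gyf2-1, against 61.2, 80.1 and 75.3 CPM in WT (log2 fold change 0.34 ± 0.11, adjusted p = 0.0227), a call lost without WT replicate 1 and without gyf1 gyf2-1 replicates 2 or 3. Of the 12 genes whose description holds the domain, 3 were higher and 3 lower, with 1 higher without WT replicate 1 or gyf1 gyf2-1 replicates 2 or 3, 1 lower without gyf1 gyf2-1 replicate 2 and 5 lower without WT replicate 1.

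The double mutant was next set directly against each single mutant. Against gyf1, 2229 genes (10.8%) were higher and 1398 (6.75%) lower in gyf1 gyf2-1, and 779 were lower without gyf1 gyf2-1 replicate 2. Against gyf2, 1746 genes (8.43%) were higher and 938 (4.53%) lower, with 461 lower without gyf1 gyf2-1 replicate 2, 499 without gyf2 replicate 2 and 611 without gyf2 replicate 1. All these comparisons share the gyf1 gyf2-1 libraries, and list counts against the single mutants were not recomputed with libraries left out. Amino acid breakdown had 14 of 20 members higher against gyf1 and 12 against gyf2, with none lower in either. SEN1 averaged 52.9 ± 4.54 CPM in gyf1 gyf2-1, 13.3 ± 1.17 CPM in gyf2 and 8.01 ± 1.49 CPM in gyf1 (log2 fold changes 1.98 ± 0.10 against gyf2 and 2.71 ± 0.11 against gyf1). MCCA averaged 52.6 ± 3.43 CPM in gyf1 gyf2-1, 30.4 ± 1.45 in gyf2 and 29.7 ± 1.21 in gyf1 (log2 fold changes 0.79 ± 0.09, adjusted p = 2.05e-07, and 0.82 ± 0.09, adjusted p = 3.70e-08). Among immune genes, SARD1, a regulator of salicylic acid synthesis, averaged 31.1 ± 3.33 CPM in gyf1 gyf2-1, 12.5 ± 2.5004 in gyf2 and 10.4 ± 0.5002 in gyf1.

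Other genes raised against WT were near or below the gyf2 level. Of the ERF factors 0 were higher and 3 lower in gyf1 gyf2-1 than in gyf2, and 5 higher and 0 lower than in gyf1. ERF104, a factor released by an immune kinase, had 44.6, 48.5 and 42.7 CPM in gyf1 gyf2-1, against 67.1, 58.2 and 58.3 CPM in gyf2 (log2 fold change −0.44 ± 0.11, adjusted p = 0.0136). STZ, a repressor of the C2H2 family, had 37.1, 42.1 and 32.6 CPM in gyf1 gyf2-1, against 57.6, 52.1 and 48.6 CPM in gyf2 (log2 fold change −0.51 ± 0.11, adjusted p = 0.0024). CAF1a, a deadenylase that shortens poly(A) tails, had 20.8, 20.3 and 16.8 CPM in gyf1 gyf2-1, against 33.9, 32.2 and 28.8 CPM in gyf2 (log2 fold change −0.72 ± 0.10, adjusted p = 1.32e-05). These genes, raised against WT, were thus lower in the double mutant than in gyf2. SZF1 averaged 156 ± 8.49 CPM in gyf1 gyf2-1 and 158 ± 15.5 CPM in gyf2, and the difference was −0.02 ± 0.07 on the log2 scale (adjusted p = 0.896). WRKY40 and WRKY22 differed from gyf2 by 0.100 ± 0.11 and 0.001 ± 0.10, and from gyf1 by 1.29 ± 0.12 and 0.75 ± 0.11. AT1G73600 was near both single mutants, at 518 ± 40.5 CPM in gyf1 gyf2-1, 539 ± 39.1 CPM in gyf2 and 577 ± 26.3 CPM in gyf1, against 228 ± 42.1 CPM in WT.

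**Figure D4:**
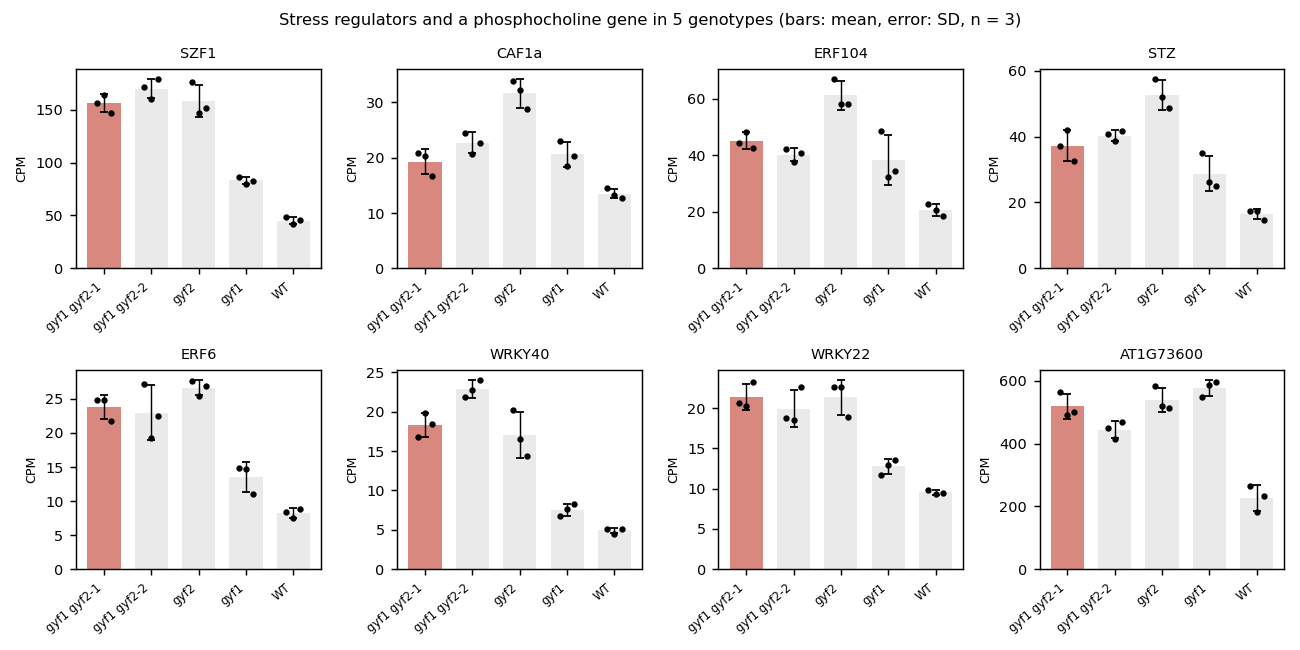
Levels (CPM, linear axes from 0) of 7 stress and RNA decay genes and of AT1G73600 in the 5 genotypes; bars are means, error bars SD of 3 libraries and dots single libraries. CAF1a, ERF104 and STZ peak in gyf2, and SZF1, ERF6, WRKY40 and WRKY22 have like means in gyf1 gyf2-1 and gyf2.

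A few genes set a single mutant apart from the double mutant. FDM1, a protein of RNA-directed DNA methylation, had 24.97, 27.2 and 22.2 CPM in gyf1 gyf2-1, against 8.84, 7.11 and 6.59 CPM in gyf2 (log2 fold change 1.71 ± 0.12, adjusted p = 6.93e-11), and WT had 21.3, 23.8 and 23.4 CPM. DML1, the DNA demethylase whose own gene responds to methylation, had 35.5, 36.1 and 36.3 CPM in gyf1 gyf2-1, against 14.7, 8.77 and 13.3 CPM in gyf2 (log2 fold change 1.54 ± 0.12, adjusted p = 3.16e-09). FDM1 was low in gyf2 alone among the genotypes, as it averaged 23.2 ± 0.9401 CPM in gyf1 and 24.9 ± 3.26 CPM in gyf1 gyf2-2. DML1 averaged 27.9 ± 2.27 CPM in gyf1 and 29.3 ± 1.59 CPM in gyf1 gyf2-2, both above gyf2, and its WT level is not given here. HEI10, a crossover protein of meiosis, had 2.03, 2.496 and 2.02 CPM in gyf1 gyf2-1, against 4.76, 5.29 and 4.82 CPM in gyf2 (log2 fold change −1.18 ± 0.22, adjusted p = 3.43e-04).

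Few genes were called between the double mutants. Between gyf1 gyf2-1 and gyf1 gyf2-2, 15 genes (0.0724%) were higher and 33 (0.159%) lower, with 1539 (7.43%) at an unadjusted p below 0.05. The counts were 7 higher without gyf1 gyf2-1 replicate 3 or without gyf1 gyf2-2 replicate 2, and 14 lower without gyf1 gyf2-1 replicate 3. Other libraries moved them as well, with 8 higher without gyf1 gyf2-2 replicate 3, 10 higher and 19 lower without gyf1 gyf2-1 replicate 2, 20 lower without gyf1 gyf2-2 replicate 2 and 21 lower without its replicate 1, and DESeq2 called 29 higher. No member of the starvation, amino acid breakdown, ERF, SAUR or ribosome biogenesis lists was called. These lists have 12 to 60 tested members. At shares of 0.0724% and 0.159% a list of that size would seldom hold a call, so nothing is drawn from this. Within the phosphate list 3 members were lower in gyf1 gyf2-1, among them SPX1, an inhibitor of PHR1, at 63.4, 65.2 and 60.7 CPM in gyf1 gyf2-1, against 92.4, 99.02 and 82.5 CPM in gyf1 gyf2-2 (log2 fold change −0.53 ± 0.08, adjusted p = 5.59e-04), and SRG3, a phosphodiesterase, at 49.3, 52.5 and 53.7 CPM in gyf1 gyf2-1, against 66.9, 68.3 and 63.9 CPM in gyf1 gyf2-2 (log2 fold change −0.36 ± 0.08, adjusted p = 0.0362). WRKY53, a factor of leaf ageing, had 15.4, 16.98 and 14.4 CPM in gyf1 gyf2-1, against 25.8, 25.5 and 24.2 CPM in gyf1 gyf2-2 (log2 fold change −0.69 ± 0.11, adjusted p = 0.00107).

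Of the 33 lower genes 8 lie next to each other on chromosome 2. The run goes from U1A, a protein of the splicing machinery, to UXS4, an enzyme of cell wall sugar synthesis. It was found by looking at where the called genes lie, so its members and flanking genes were chosen after their values were seen. U1A had 22.8, 20.4 and 20.6 CPM in gyf1 gyf2-1, against 41.8, 45.2 and 42.97 CPM in gyf1 gyf2-2 (log2 fold change −1.03 ± 0.08, adjusted p = 3.44e-09), and PHR2, a photolyase-like protein, had 189, 178 and 201 CPM in gyf1 gyf2-1, against 353, 376 and 374 CPM in gyf1 gyf2-2 (log2 fold change −0.96 ± 0.07, adjusted p = 7.65e-10). AT2G47610, a ribosomal protein gene, had 324, 293 and 310.4 CPM in gyf1 gyf2-1, against 592, 706 and 642 CPM in gyf1 gyf2-2 (log2 fold change −1.06 ± 0.07, adjusted p = 7.55e-11). PHR2 averaged 201 ± 14.8 CPM in gyf2, 403 ± 4.86 CPM in gyf1 and 205 ± 19.5 CPM in WT. Each gene of the run averaged more in gyf1 gyf2-2 and gyf1 than in gyf1 gyf2-1, gyf2 or WT. Against WT, U1A and AT2G47610 were lower in gyf1 gyf2-1 (log2 fold changes −0.25 ± 0.09 and −0.37 ± 0.07), a call that U1A lost without WT replicate 1. Including 1 tested gene on each side, the run lies in chr2:19511717-19544910 on TAIR10. The flanking genes AT2G47560 and AT2G47670 averaged 4.26 ± 0.532 and 0.509 ± 0.187 CPM in gyf1 gyf2-1 and 3.097 ± 0.699 and 0.689 ± 0.189 CPM in gyf1 gyf2-2 and were not called (adjusted p = 0.669 and 0.91).

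**Figure D5:**
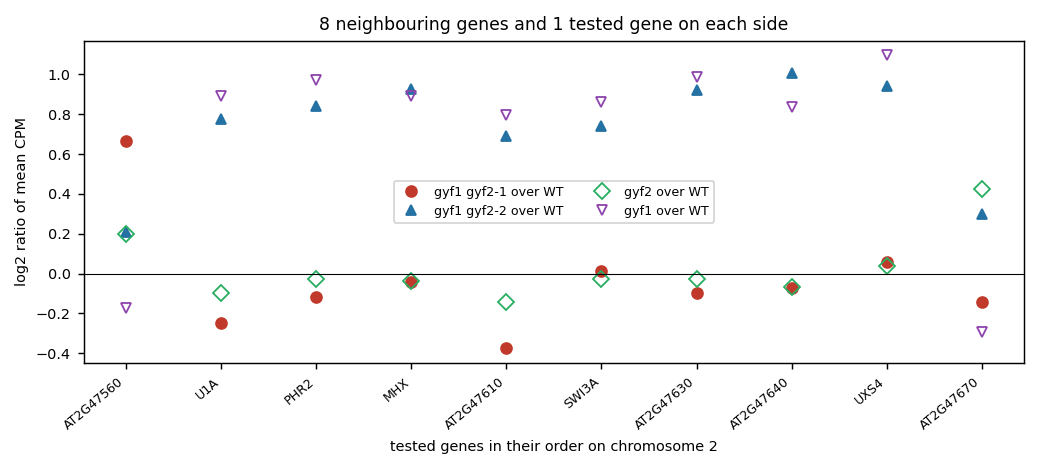
Log2 ratio of mean CPM in each mutant over WT for 8 neighbouring genes of chromosome 2 and 1 tested gene on each side, in gene order, with a symbol per genotype. In gyf1 gyf2-1 and gyf2 the 8 genes lie near or below 0, while in gyf1 gyf2-2 and gyf1 they lie well above it. PHR2 averages 189 CPM in gyf1 gyf2-1 and 368 CPM in gyf1 gyf2-2.

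Single genes elsewhere also differed. AT1G75945 had 5.16, 3.77 and 4.202 CPM in gyf1 gyf2-1, against 0.32004, 0.148 and 0.0516 CPM in gyf1 gyf2-2 (log2 fold change 4.63 ± 0.38, adjusted p = 3.44e-09), and it averaged 0.0924 ± 0.0988 CPM in gyf2, 5.23 ± 0.479 CPM in gyf1 and 5.503 ± 0.916 CPM in WT. Its level was lowest in gyf2 and gyf1 gyf2-2, where a library held only a few counts. AT3G01345 had 2.305, 1.096 and 0.5603 CPM in gyf1 gyf2-1, against 18.6, 10.9 and 20.7 CPM in gyf1 gyf2-2 (log2 fold change −3.65 ± 0.33, adjusted p = 2.14e-06), and AT4G33720 had 44.7, 45.7 and 45.1 CPM in gyf1 gyf2-1, against 20.2, 15.5 and 14.1 CPM in gyf1 gyf2-2 (log2 fold change 1.45 ± 0.13, adjusted p = 5.22e-06). No gene symbol is given for these 3 genes.

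Called protein-coding genes also differed in transcript length and in level. The median level (mean log2 CPM) was 5.11 for the higher genes, 4.785 for the lower and 4.057 for all tested. It was 3.087 for genes at least 2-fold higher and 0.764 for those at least 2-fold lower. Whether length or exon number follows level was not tested. Among protein-coding genes the median transcript length was 1946 bases for the genes higher in gyf1 gyf2-1, 1485 bases for those lower and 1734 bases for all tested. Genes with a single exon were 16.36% of the higher, 14.78% of the lower and 15.36% of all. Among genes at least 2-fold higher the share was 35.82%, and among those at least 2-fold lower it was 33.78%.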

How the data were processed

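Per the labels, total RNA of whole seedlings was made into strand-specific mRNA libraries. Alignment with HISAT2 2.0.4, counting with HTSeq 0.6.1p1 and the build TAIR10 are listed per the submitters' processing notes, without a strand setting, so reads of overlapping antisense genes may be shared. The authors deposited raw counts per gene and FPKM values, and the FPKM values entered no test. Counts were analysed in R 4.3.3 with edgeR 4.0.16: filterByExpr left 20721 of 32833 genes, library sizes were scaled by TMM, and all 15 libraries entered 1 robust quasi-likelihood model with 1 coefficient for each genotype, which share 1 estimate of spread (common biological coefficient of variation 7.94%). F tests for 4 comparisons were each adjusted by Benjamini-Hochberg, and genes were called at adjusted p below 0.05. A standard error is the absolute log2 fold change over the square root of F. CPM uses the scaled library sizes.

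Named genes are the 20 largest rises and falls against WT and the 8 largest otherwise, among called genes of mean log2 CPM at least 1 without overlap, plus up to 5 called members with the lowest adjusted p and preset key members from each of 57 lists (1318 loci) and all tested GYF genes. Of the list loci 17 are in more than 1 list, so list counts are not all separate. Members, lists and tests were chosen with earlier results of these data known. Alternatives were DESeq2 1.42.0, other size factors, no count filter, only the libraries compared, a replicate block and leaving libraries out.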

Additional observations from a re-analysis of the deposited data

Results flagged for a closer look

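Among the genes picked by the naming rule, 20 differed between the double mutants by the test of that difference itself, the edgeR quasi-likelihood comparison of gyf1 gyf2-1 with gyf1 gyf2-2. Lower in gyf1 gyf2-1 were AT3G01345 by a log2 difference of −3.65, AT2G47640 (−1.08), AT2G47610 (−1.06), AT5G35940 (−1.03), U1A (−1.03), ATCG00920 (−1.02), AT2G47630 (−1.01), AT5G33355 (−1.01), WRKY53 (−0.69), SPX1 (−0.53) and SRG3 (−0.36). Higher were AT1G75945 (4.63), AT4G33720 (1.45), AT5G40590 (0.82), AT5G62865 (0.82), AT5G62360 (0.73), MTPA2 (0.72), TIP2;3 (0.71), AMT1;3 (0.52) and CYP79F1 (0.33). Outside that rule and chosen after their values were seen, PHR2 and UXS4 were also lower, by −0.96 and −0.88. The calls of AT5G35940, ATCG00920, AT5G33355, AT5G40590, AT5G62865, MTPA2, TIP2;3 and AMT1;3 were lost when at least 1 library was left out. Their highest adjusted p values with a library left out were 0.306 for AT5G35940, 0.332 for ATCG00920, 0.0541 for AT5G33355, 0.156 for AT5G40590, 0.12 for AT5G62865, 0.306 for MTPA2, 0.0952 for TIP2;3 and 0.207 for AMT1;3.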

How the results depend on the processing

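Of 312 named genes called against WT, 271 kept the call under every alternative run, 41 lost it under at least 1 and 0 reversed direction. Leaving out each library in turn gave 2232 to 2945 genes higher and 1549 to 2372 lower against WT, 1570 to 1997 higher and 779 to 1272 lower against gyf1, 1164 to 1507 higher and 461 to 920 lower against gyf2, and 7 to 22 higher and 14 to 36 lower against gyf1 gyf2-2, with the lowest counts without gyf1 gyf2-1 replicate 2, or replicate 3 for the last (for the higher count there also without gyf1 gyf2-2 replicate 2). The number higher against gyf1 gyf2-2, 15 as reported, was 29 with DESeq2, 25 with no count filter and 30 with the replicate block; the cause was not tested. No label ties the replicate numbers of gyf1 gyf2-1 and WT to a batch. The correlations of their residuals were 0.194, −0.012 and 0.037 for numbers 1 to 3. The first was the highest of all pairings, the next being 0.108 for gyf1 gyf2-1 replicate 3 with WT replicate 2. Both replicates 1 also lay on the same side of the second principal component, at 21.2 and 24.6. Whether libraries of like number shared a batch was not tested. The block gave 3226 higher and 2728 lower against WT. Without both replicates 1 the counts against WT were 2437 and 1789. Genes at a few CPM, among them most of the largest falls, are limited by depth.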
